A study of Mus musculus with 8 samples.

Results

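The genes described here encode the receptors for the Fc part of immunoglobulin G, the lipid-sensing receptor Trem2, and the proteins that carry their signal: Fcgr1, Fcgr2b, Fcgr3, Fcgr4, Fcer1g, Trem2, Tyrobp, Syk, Plcg2 and Inpp5d. They were chosen by name, not by a measured value. Of these 10 genes, 9 had a row among the 17644 genes of the expression table; Syk was not analysed here. The tissue came from the brains of 11-week-old male C57BL/6NCrSlc mice in which a small cavity had been made by aspiration in the motor cortex under a craniotomy. Brains were taken either at once after the lesion (no delay, 4 samples) or 1 week later (4 samples), and the tissue within a 1.0 mm margin of the cavity was collected. All mice of both groups carried the lesion, so the no-delay group stands for freshly injured cortex and neither group is uninjured. RNA was measured by CAGE, which sequences the capped 5′ ends of transcripts, and levels are given in CPM, counts of a gene per 1000000 reads of its library. Since 5′ ends are counted, transcript length does not enter the level.

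Receptors of this kind share a wiring scheme. Activating Fc receptors and Trem2 have no signalling tail of their own and pair with small adaptors, Fcer1g (the common gamma chain) or Tyrobp (DAP12), whose tails hold an immunoreceptor tyrosine-based activation motif (ITAM). Src-family kinases phosphorylate the ITAM, the kinase Syk docks on it, and phospholipase C gamma (Plcg2) and other effectors follow. Fcgr2b holds the opposite motif, an ITIM, which recruits phosphatases such as SHIP1, the product of Inpp5d. In the brain these genes are known mainly from microglia and macrophages, where they serve the uptake of antibody-coated material, of lipids and of debris.

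The libraries held 8278855 to 13998941 reads, so 1 read corresponded to 0.0714 to 0.121 CPM and 3 reads, the limit that a count of 0 allows, to 0.214 to 0.362 CPM. Reads without molecular identifiers are not independent molecules, so intervals and limits computed from reads cover counting error only. The column names give a group and a short index tag but no replicate number, and the 4 libraries of each group are called A to D here. Each letter stands for a 6-base tag that occurs once in each group; nothing says that a shared tag means a shared animal or batch. The deviations of same-tag libraries from their group means correlated at -0.034 to 0.18 over the genes tested, where genes are not independent replicates. A 3-base tag in the names was CAC in all no-delay libraries and GCT in all 1-week libraries, so whatever that tag stands for and the delay cannot be told apart. Nothing says that each sample came from its own animal, so p-values measure the spread between these samples, which may be technical. In tissue, a change in the number of cells of a type and a change in RNA per cell cannot be told apart.

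The sequence before the start site was looked at first, since promoters of myeloid genes often hold purine-rich sites for PU.1-type factors. Whether such letters bear on the change in the members was not tested. RefSeq promoter windows on GRCm38.p6 were at hand for 8 of the 9 measured members, and Tyrobp was not matched. Only the first listed window was searched for each member, so other start sites were not looked at. The share over all genes was counted over all windows. The expression values were made on mm9, and no coordinate of theirs is used. The letters GAGGAAG, searched on both strands in the 250 bases before the start, were found for 5 of the 8 members (Fcgr1, Fcgr3, Fcgr4, Trem2 and Inpp5d) and in 10.6% of 32851 windows of all genes. In all 5 the match lay within the last 100 bases before the start, where 4.72% of all windows held one. Fcgr2b, Plcg2 and Fcer1g had no match, and the share in other myeloid genes was not counted. Those 100 bases are given for the 5 members and, for contrast, for Fcer1g. They run 5′ to 3′ along the gene, and capitals mark GAGGAAG or its reverse complement CTTCCTC.
Fcgr1, chr3:96293970-96294069, minus strand: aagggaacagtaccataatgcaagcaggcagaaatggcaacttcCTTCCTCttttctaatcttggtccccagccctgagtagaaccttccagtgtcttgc
Fcgr3, chr1:171059404-171059503, minus strand: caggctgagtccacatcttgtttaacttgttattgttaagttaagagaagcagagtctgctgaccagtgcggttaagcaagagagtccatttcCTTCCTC
Fcgr4, chr1:171018826-171018925, plus strand: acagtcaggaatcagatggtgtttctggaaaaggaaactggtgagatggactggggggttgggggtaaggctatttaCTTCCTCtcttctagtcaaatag
Trem2, chr17:48346301-48346400, plus strand: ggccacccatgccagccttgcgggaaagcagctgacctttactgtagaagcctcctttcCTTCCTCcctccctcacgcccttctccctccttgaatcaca
Inpp5d, chr1:87620212-87620311, plus strand: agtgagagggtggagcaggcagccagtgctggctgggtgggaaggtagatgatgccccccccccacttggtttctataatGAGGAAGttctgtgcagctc
Fcer1g, chr1:171234350-171234449, minus strand: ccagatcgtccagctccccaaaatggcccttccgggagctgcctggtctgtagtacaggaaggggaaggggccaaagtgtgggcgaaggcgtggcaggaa

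A match of letters is a description and not a site of binding, and its absence says only that these letters are not in the window. Of 4 other motifs searched in the same way over 250 bases, the STAT-type TTCNNNGAA was found for Fcgr1 alone (7.02% of all windows), the interferon-response type (GAAA, any 2 bases, GAAA) for Fcgr4 alone (2.98%), and the AP-1-type TGANTCA for Trem2 alone (6.75%). TATAAA was found for none of the 8 members and in 12.4% of all windows.

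All 9 measured members were higher at 1 week than with no delay. Each was called higher by limma on log2(CPM + 1) with a Benjamini-Hochberg adjusted p under 0.05, as were 23.4% of the 14718 genes tested; 36.8% were called in either direction. Each also had all 4 of its 1-week libraries above all 4 no-delay libraries, beside 22.7% of genes tested. For Fcgr4, which passed the filter only through the 1-week group, the direction and this separation were set by the filter. The median log2 fold change was 2.49 over the 9 members and 0.06 over all genes tested, and a log2 fold change of at least 1 was reached by 9 of 9 members and by 6.32% of genes tested. The summed level of the 9 members rose from between 83.1 and 95.6 CPM to between 449 and 761 CPM. Of all genes called, 63.6% were higher at 1 week; that share was 53.2% after TMM, 51.4% after median-of-ratios and 43.4% after quantile scaling, the last of which shifted the all-gene median from 0.06 to -0.04. Every member was called higher under these scalings too.

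**Figure D1:**
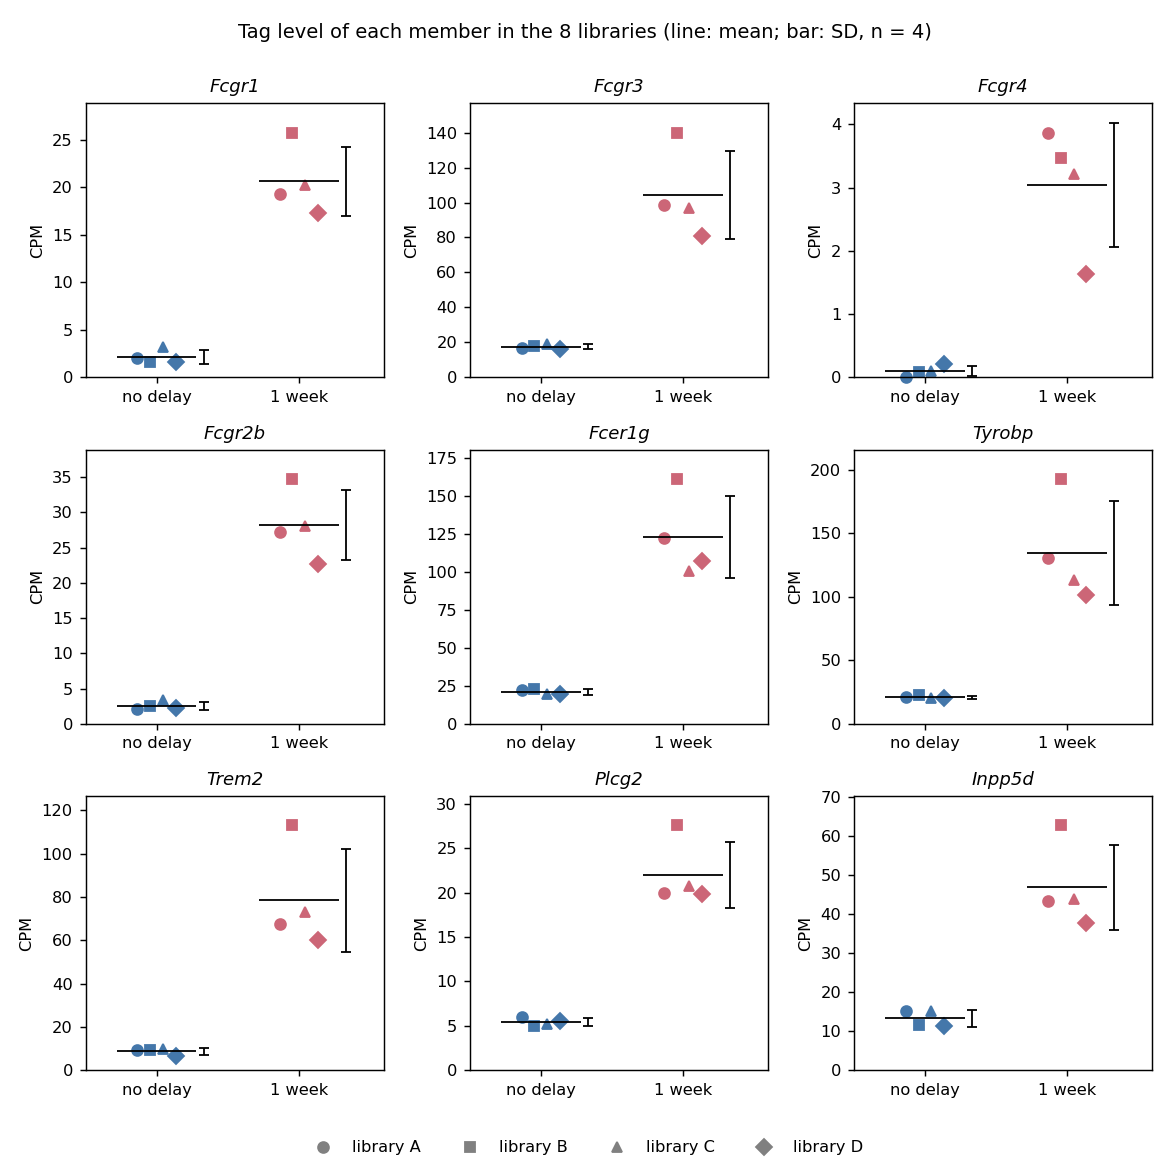
CPM of each of the 9 members in the 4 no-delay and 4 1-week libraries, each point a library. The groups do not overlap for any member. For Fcgr4 this separation was set by the filter. It had no read in 1 no-delay library, and its other 3 no-delay libraries held 0.09 to 0.21 CPM.

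Among the activating Fc receptors, Fcgr3, the low-affinity receptor for complexed antibody, was the most abundant. Its CPM in no-delay libraries A to D was 16.6, 17.8, 19.3 and 16.1, and in 1-week libraries A to D 98.8, 140.03, 97.0 and 81.0. The no-delay libraries lay close together, and 1-week B stood highest. The mean rose from 17.4 ± 1.45 to 104 ± 25.2 CPM (SD, n = 4 each), a log2 fold change of 2.49 (SE 0.14; adjusted p from limma 8.3e-08).

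Fcgr1, the high-affinity receptor that binds single antibody molecules, started near the low end of the members. Its no-delay libraries held 2.05, 1.65, 3.17 and 1.67 CPM and its 1-week libraries 19.3, 25.8, 20.3 and 17.3 CPM. No-delay C was the highest of its group, and 1-week B of the other. The ratio of the means was 9.68 (2.14 ± 0.714 to 20.7 ± 3.64 CPM), and the log2 fold change 2.80 (SE 0.17; adjusted p from limma 1.6e-07).

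Fcgr4, an activating receptor known from monocytes and neutrophils and induced in activated myeloid cells, was the scarcest member. It had 0, 0.09, 0.10 and 0.21 CPM with no delay and 3.87, 3.47, 3.21 and 1.63 CPM at 1 week. These values rested on 4 reads in the no-delay group and 144 reads in the 1-week group, a ratio of 30.2 once scaled to depth (exact binomial 95% interval 11.6 to 112). It passed the filter on low values through the 1-week group alone, so its direction and the separation of its groups were set by the filter. On the log2(CPM + 1) scale, where scarce genes show less than their full change, the fold change was 1.84 (SE 0.20; adjusted p from limma 1.8e-05); it was 0.77 with a pseudocount of 4 and 4.86 by DESeq2 on the recovered reads.

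Fcgr2b, the inhibitory Fc receptor, had the largest log2 fold change of the 9 members on this scale. Its no-delay libraries held 2.05, 2.47, 3.37 and 2.29 CPM and its 1-week libraries 27.2, 34.7, 28 and 22.7 CPM. The lowest 1-week library was several times the highest no-delay library. The log2 fold change of 3.04 (SE 0.15; adjusted p from limma 5.7e-08) ranked 34th among the 14718 genes tested.

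The 2 ITAM adaptors were the most abundant members together with Fcgr3, and they lay close to each other in both groups. Fcer1g, the partner of the activating Fc receptors, had 22.4, 22.7, 19.3 and 19.7 CPM with no delay and 122, 161, 101 and 107 CPM at 1 week. Its log2 fold change was 2.47 (SE 0.13; adjusted p from limma 6.2e-08). Tyrobp, the partner of Trem2, had 21.2, 22.3, 20 and 20 CPM with no delay. At 1 week it had 130.2, 193, 114 and 101 CPM, a log2 fold change of 2.59 (SE 0.15; adjusted p from limma 1.5e-07). The no-delay libraries of each adaptor differed little from each other, and the 1-week libraries spread more, with 1-week B highest for both.

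Trem2, which binds phospholipids and lipoproteins at the cell surface, had a log2 fold change of 3.0 beside 2.59 for its adaptor. It had 9.12, 9.51, 9.90 and 6.46 CPM with no delay and 67.4, 113, 73.0 and 60.1 CPM at 1 week. The means were 8.75 ± 1.56 and 78.4 ± 23.7 CPM, and the change had an SE of 0.18, an adjusted p from limma of 1.4e-07 and a rank of 35 among genes tested.

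The 2 measured enzymes had the smallest log2 fold changes of the members on this scale, with Fcgr4 close by. Plcg2, the phospholipase downstream of Syk, had 6.04, 5.03, 5.25 and 5.52 CPM with no delay and 19.9, 27.6, 20.7 and 19.9 CPM at 1 week. Its 1-week libraries A, C and D lay within 1 CPM of each other and 1-week B lay above them. Its log2 fold change was 1.82 (SE 0.12; adjusted p from limma 4.0e-07). Inpp5d, the lipid phosphatase that dampens signals of these receptors, had 15.3, 11.6, 15.2 and 11.3 CPM with no delay and 43.4, 62.7, 43.9 and 37.6 CPM at 1 week, a log2 fold change of 1.73 (SE 0.15; adjusted p from limma 3.1e-06).

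The 1-week libraries kept nearly the same order across members. Library B was highest for 8 of the 9 members, the exception being Fcgr4, and library D was lowest for 8 of the 9, the exception being Fcer1g. Library B also had the highest summed markers of homeostatic microglia among the 1-week libraries. The border macrophage sum was highest there too, at 94.7 CPM, of which Stab1 held 64.5 CPM. Of that list, Mrc1, F13a1, Cd163 and Cbr2 were highest in library D (these markers were named after their values were seen).

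**Figure D2:**
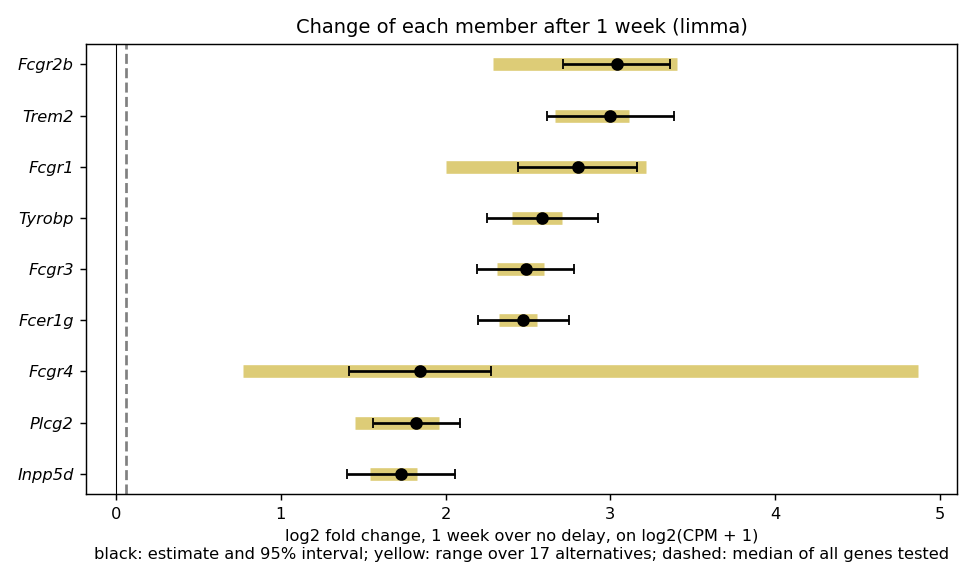
Log2 fold change (1 week over no delay, on log2(CPM + 1)) of each member with its 95% interval from limma. All 9 intervals lie above 1, from Inpp5d at 1.73 to Fcgr2b at 3.04; the median of all genes tested was 0.06.

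Ratios between members were taken within each library, where they do not depend on how the library was scaled. Fcgr3 over Fcgr2b, an activating receptor over the inhibitory one, was 8.10, 7.22, 5.73 and 7.01 with no delay and 3.64, 4.03, 3.46 and 3.56 at 1 week. The groups did not overlap, and the ratio was 1.90-fold lower at 1 week. Its exact 2-sided permutation p was 0.0286, the smallest that 4 against 4 libraries allow, and 0.0857 after Benjamini-Hochberg adjustment over the 6 ratios computed. No ratio had an adjusted p under 0.05.

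Trem2 over Tyrobp moved the other way, from 0.430, 0.426, 0.495 and 0.323 with no delay to 0.518, 0.586, 0.643 and 0.594 at 1 week. It was 1.41-fold higher, with no overlap of the groups (exact permutation p = 0.0286, adjusted 0.0857). The other 4 ratios overlapped between the groups. Fcgr3 over its partner Fcer1g was 0.835 ± 0.114 with no delay and 0.849 ± 0.0888 at 1 week (SD, n = 4 each; exact permutation p = 0.83, adjusted 0.83). Tyrobp over Fcer1g was 0.995 ± 0.0396 and 1.08 ± 0.107 (exact permutation p = 0.2, adjusted 0.3). Fcgr1 over Fcgr2b was 0.834 ± 0.161 and 0.735 ± 0.0211 (exact permutation p = 0.371, adjusted 0.446). Fcgr4 over Fcgr2b, without no-delay A, which had no Fcgr4 read, was 0.0526 ± 0.0340 (n = 3) and 0.107 ± 0.0295 (n = 4; exact permutation p = 0.114, adjusted 0.229).

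**Figure D3:**
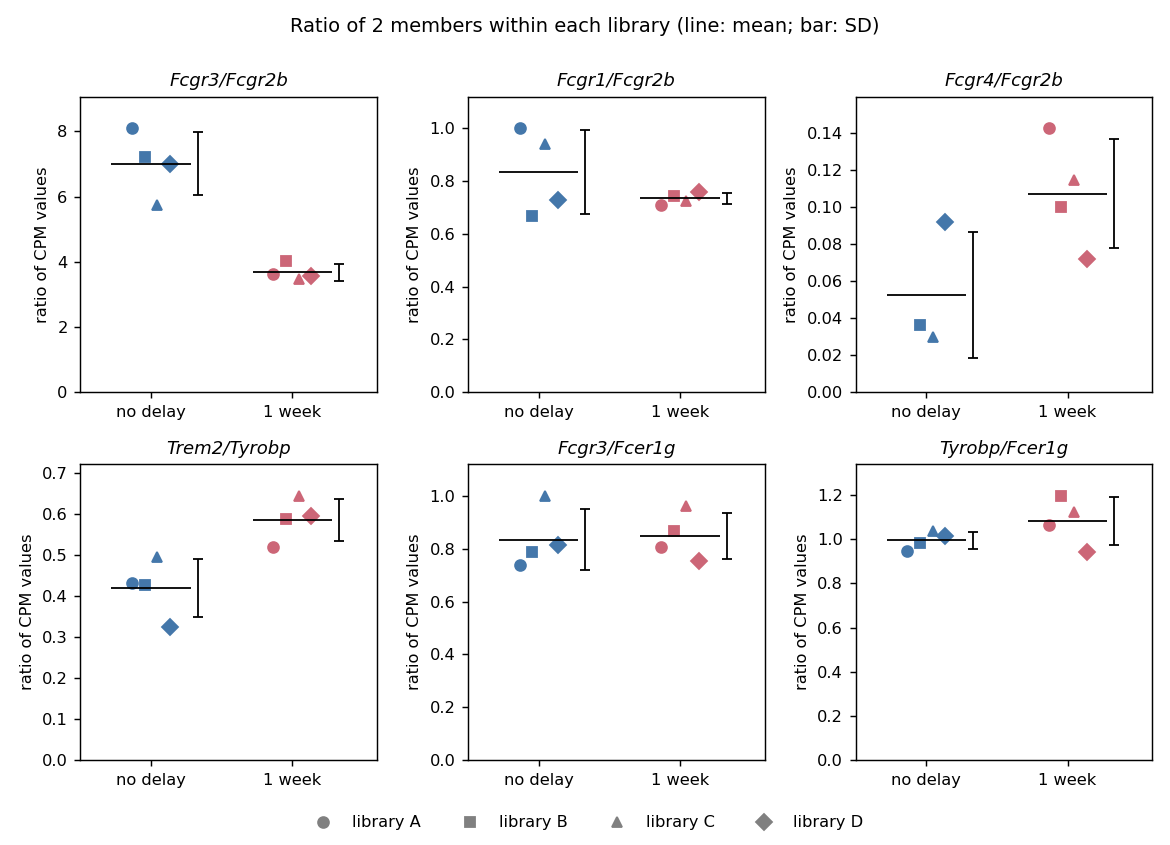
Ratios of members within each library, no delay beside 1 week, each point a library. The groups are apart for Fcgr3 over Fcgr2b, which was lower at 1 week, and for Trem2 over Tyrobp, which was higher; the other 4 ratios overlap.

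Since the members are known from microglia, their levels were set beside markers of that cell type. The summed level of 9 homeostatic microglia markers (among them P2ry12, Tmem119, Sall1, Cx3cr1 and Csf1r) was 428 to 436 CPM with no delay and 1325 to 1883 CPM at 1 week. All 9 markers were called higher, with a median log2 fold change of 1.85 (Sall1 passed the filter only through the 1-week group), so the markers of the cells that hold these receptors rose in the same libraries as the receptors. Taken as a percentage of this marker sum, 6 members were higher at 1 week with no overlap of the groups. Fcgr2b went from 0.589 ± 0.136% to 1.80 ± 0.0580% (3.11-fold), Fcgr1 from 0.494 ± 0.167% to 1.32 ± 0.0330% (2.78-fold) and Trem2 from 2.02 ± 0.371% to 4.95 ± 0.708% (2.46-fold; SD, n = 4 each). Tyrobp went from 4.83% to 8.5% (1.75-fold), Fcgr3 from 4.03% to 6.62% (1.64-fold) and Fcer1g from 4.86% to 7.85% (1.61-fold). Each of these 6 had an exact permutation p of 0.0286, and 0.0429 after adjustment over 9 members.

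The 2 enzymes overlapped between the groups on this measure. Plcg2 was 1.26 ± 0.0905% of the marker sum with no delay and 1.41 ± 0.0827% at 1 week (exact permutation p = 0.0857, adjusted 0.0964). Inpp5d was 3.08 ± 0.502% and 2.98 ± 0.236% (exact permutation p = 0.83, adjusted 0.83). Fcgr4 was 6.53-fold higher over the 3 no-delay libraries that held a read (exact permutation p = 0.0571, the smallest that 3 against 4 allow, adjusted 0.0735). That value rests on 4 no-delay reads. Fcgr4 also passed the filter only through the 1-week group, which favours such a separation. Whether the receptors and the enzymes differed from each other was not tested.

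**Figure D4:**
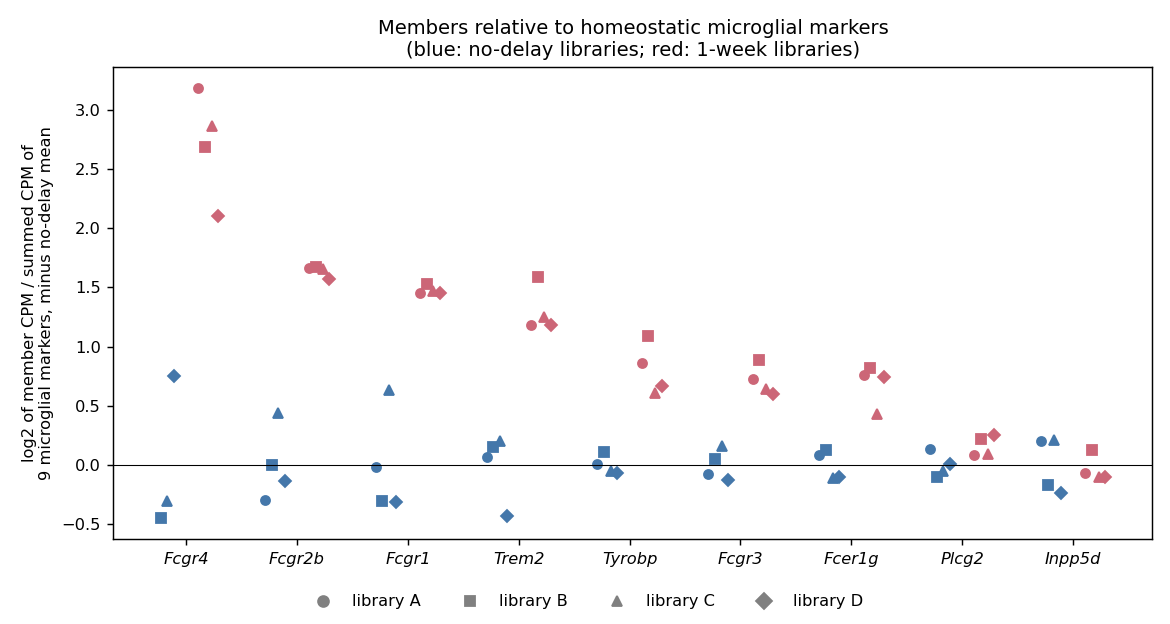
Log2 of each member's CPM over the summed CPM of 9 homeostatic microglia markers in the same library, minus the no-delay mean of that member. The no-delay and 1-week libraries stand side by side. The groups are apart for 7 members and overlap for Plcg2 and Inpp5d. Among the 7, Fcgr4 has 3 no-delay libraries with 4 reads in all. It passed the filter only through the 1-week group, which favours such a separation.

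Of the kinases and phosphatases that act on ITAM receptors, some were called higher and some lower. Of 16 tested (17 listed), 10 were called higher, 1 of them having passed the filter only through the 1-week group, and 3 lower, with a median log2 fold change of 0.30; over all genes tested, 23.4% were called higher and 13.4% lower. The largest rises were of genes known from blood cells and microglia: Ptpn6, the phosphatase SHP-1 that ITIMs recruit, went from 4.04 ± 0.355 to 31.5 ± 6.75 CPM (log2 fold change 2.67), and Ptprc, the CD45 phosphatase that primes Src-family kinases, from 3.08 ± 0.832 to 17.6 ± 2.60 CPM (2.20). The Src-family kinase Lyn rose from 23.5 ± 5.07 to 92.9 ± 11.1 CPM (1.95). Among the lower genes were the receptor phosphatase Ptprj (104.9 ± 14.1 to 75.7 ± 8.96 CPM, log2 fold change -0.46, limma adjusted p = 0.0038) and the kinase Src itself (64.4 ± 7.11 to 47.1 ± 7.48 CPM, -0.45, 0.0075). The groups overlapped for Src, with a no-delay minimum of 55.4 CPM and a 1-week maximum of 56.5 CPM. The 3 lower calls of 16 lie near the 13.4% called lower over all genes tested. Over the 18 alternatives 7 to 11 genes of the list were called higher and 2 to 4 lower, with Ptprj and Src lower in each.

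Of 25 tested scaffolds and effectors that act downstream of Syk (29 listed), 18 were called higher (1 having passed the filter only through the 1-week group), 0 lower and 7 not called, with a median log2 fold change of 0.94. By TMM or median-of-ratios scaling, by edgeR, by DESeq2 or without 1-week D, 1 gene of the list, the adaptor Grb2 (named for this count), was called lower; its limma log2 fold change was -0.15 with an adjusted p of 0.0774. Rac2, the Rac GTPase of blood cells, rose from 2.35 ± 0.158 to 21.8 ± 3.71 CPM (log2 fold change 2.76) and Pik3ap1, the adaptor BCAP, from 2.47 ± 0.491 to 20.6 ± 3.34 CPM (2.63). The adaptor Lcp2 (SLP-76) rose from 2.96 ± 0.626 to 18.1 ± 2.70 CPM (2.28), and Vav1, an exchange factor for Rac, from 3.54 ± 0.826 to 20.1 ± 3.73 CPM (2.22).

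Of 7 tested receptors and adaptors listed with ITAM or related motifs (28 listed, 14 in the table), 6 were called higher and 0 lower, with a median log2 fold change of 1.28. Of the 7, 4 had passed the filter only through the 1-week group (Clec7a, Treml2, Hcst and Cd79b), so their direction was set by the filter. All 4 were among the 6 called higher, and the list median is the value of Hcst. Clec7a, the beta-glucan receptor dectin-1, had 1 read in the no-delay group and 520 reads in the 1-week group, a depth-scaled ratio of 437 (exact binomial 95% interval 78.1 to 17285). Clec5a, a lectin-like receptor that pairs with Tyrobp, rose from 1.64 ± 0.306 to 8.67 ± 1.65 CPM (log2 fold change 1.87). Treml2, of the Trem receptor cluster, went from 0.265 ± 0.209 to 3.29 ± 0.882 CPM (1.75) and Hcst from 0.623 ± 0.263 to 3.01 ± 1.01 CPM (1.28). Hcst encodes DAP10, whose tail binds a lipid kinase and holds no ITAM, and its gene lies beside Tyrobp.

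Of 11 tested receptors listed with ITIM or related motifs (18 listed, 16 in the table), 10 were called higher and 0 lower, with a median log2 fold change of 1.17. Of the 10, 3 had passed the filter only through the 1-week group, Cd22 and Cd72 among them, so their direction was set by the filter. Cd22, a sialic acid receptor best known from B cells, had 1 read in the no-delay group and 222 in the 1-week group, a depth-scaled ratio of 186 (exact binomial 95% interval 33.1 to 7398). Cd72 rose from 0.295 ± 0.173 to 5.01 ± 2.13 CPM (2.16), Cd33, a second sialic acid receptor, from 6.44 ± 0.944 to 31.6 ± 5.08 CPM (2.13), and the collagen receptor Lair1 from 4.90 ± 0.991 to 24.4 ± 3.95 CPM (2.11). Sirpa, the receptor for the surface protein CD47 and also named after its values were seen, was not called, at 346 ± 15.6 and 358 ± 7.0 CPM. Lilrb4, named after its values were seen, had no read with no delay and 408 reads at 1 week, spread from 0.98 to 16.3 CPM; against 3 reads over the no-delay group it was at least 114-fold higher, and it was not tested because only 3 libraries reached 1 CPM.

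The list of other Fc receptors and immunoglobulin chains had 5 genes in the table, 4 Fc receptor or receptor-like genes and Ighm, and all were called higher (median log2 fold change of the 5, 1.09). Among them Fcrls, an Fc receptor-like gene known from microglia, rose from 23.6 ± 3.85 to 128 ± 34.4 CPM (log2 fold change 2.37). Trim21, a receptor for antibody in the cytosol, rose from 2.20 ± 0.662 to 7.42 ± 2.35 CPM (1.38) and Fcgrt, the neonatal Fc receptor, from 7.21 ± 0.663 to 16.5 ± 1.42 CPM (1.09). Fcrl1 had 0.553 ± 0.326 and 1.53 ± 0.383 CPM (0.71); its groups overlapped, and it lost its call with quantile normalization (limma adjusted p = 0.315). Ighm, the heavy chain of immunoglobulin M, named after its values were seen, rose from 27.9 ± 4.07 to 44.0 ± 8.88 CPM (log2 fold change 0.63, limma adjusted p = 0.0037). The other immunoglobulin chains of the list were not analysed here.

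Of 12 tested genes for Trem2 ligands, the sheddases that cut it and the protease complex that clears its stub (16 listed), 7 were called higher and 0 lower, with a median log2 fold change of 0.39; Lgals3 and Ms4a6d among the 7 had passed the filter only through the 1-week group. Lgals3, which encodes the lectin galectin-3, went from 0.285 ± 0.291 to 15.3 ± 7.49 CPM (log2 fold change 3.60). Ms4a6d, on the list but not itself a ligand, a sheddase or part of that complex, rose from 0.620 ± 0.176 to 7.10 ± 2.43 CPM (2.28). Apoe, the main lipid carrier of the brain, rose from 1737 ± 283 to 6398 ± 1209 CPM (1.88), and Adam17, a sheddase of Trem2, from 14.6 ± 2.86 to 32.0 ± 3.75 CPM (1.10).

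**Figure D5:**
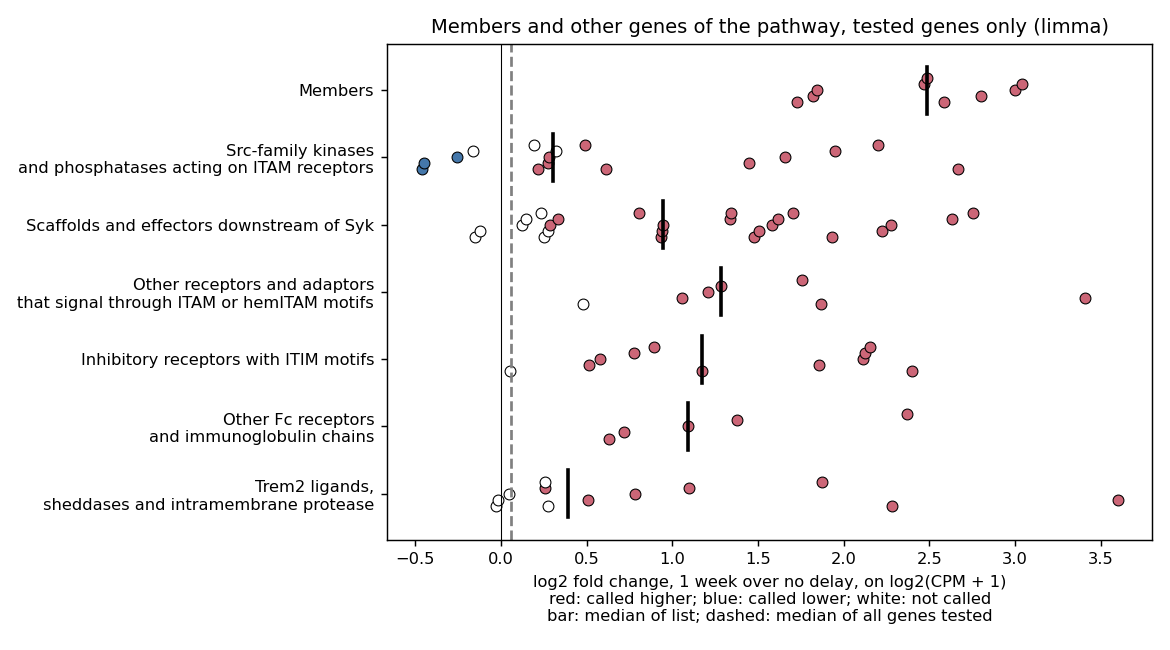
Log2 fold change (1 week over no delay, on log2(CPM + 1)) of every tested gene in the 6 pathway lists, each point a gene, with the median of each list. The medians run from 0.30 for the kinases and phosphatases to 1.28 for the ITAM receptors and adaptors. In the latter list 4 of 7 tested genes had passed the filter only through the 1-week group. Calls below 0 occur in the kinase and phosphatase list, Ptprj and Src among them.

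Other cells that carry Fc receptors or ITAM adaptors were looked at through their markers. Border macrophage markers summed to 9.96 to 15.1 CPM with no delay and 41.9 to 94.7 CPM at 1 week. Of 5 tested, 4 were called higher, with Ms4a7 having passed the filter only through the 1-week group. Stab1 alone held 24.4 to 64.5 CPM at 1 week. The groups overlapped for F13a1, which was called, and for Cbr2, which was not. Cd163 (0.51 to 0.89 and 0.52 to 1.71 CPM) and Lyve1 were not tested, and their groups overlapped. Of the monocyte markers, 2 of 2 tested were higher (Vcan and Fn1, which other brain cells also express), with sums of 21.5 to 27.7 and 43.0 to 71.5 CPM, while Ccr2, Ly6c2 and Itgal stayed under 1 CPM in every library. Plac8 of that list, not tested, had 0.20 to 0.63 CPM with no delay and 0.81 to 4.95 CPM at 1 week, and Ly6c2 0 to 0.18 and 0.33 to 0.60 CPM, without overlap of the groups. Neutrophil markers summed to 0.71 to 13.3 CPM and 1.25 to 5.07 CPM, dendritic cell markers to 21.3 to 23.1 and 20.3 to 23.1 CPM, and Gzma, the measured marker of natural killer cells, to at most 0.36 CPM. Flt3 (means 10.9 and 10.8 CPM) and Zbtb46 (11.2 and 9.62 CPM) held nearly all of the dendritic cell sum. The rest of that list stayed under 1 CPM in every library and was not tested. Of these, Clec9a had 0 and 11 reads and Itgae 0 and 21 reads (both named after their values were seen). The groups overlapped for Itgae but not for Clec9a. B cell markers summed to 0.61 to 2.60 and 2.21 to 5.67 CPM, with Ms4a1 and Pax5 under 1 CPM in every library. The 1 tested B cell marker, Cd79b, was called higher (0.428 ± 0.282 to 1.95 ± 0.409 CPM, limma adjusted p = 0.00062), having passed the filter only through the 1-week group. T cell markers stayed at or below 1.69 CPM and mast cell markers at or below 2.57 CPM in sum. Microglia markers, and those border macrophage, monocyte and B cell markers that were higher, rose with the members. Their part in the members' rise was not tested.

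Of the cells that define brain tissue, neurons had markers at 8204 to 10143 CPM in sum, 2 of 7 of them lower at 1 week. Astrocyte markers summed to 1532 to 1774 CPM with no delay and 3431 to 4052 CPM at 1 week, all 6 of them higher. Oligodendrocyte markers (4 of 5) and endothelial markers (5 of 5) were also called higher, and the part of these cells in the members' rise was not tested. No member had the same reads as another row of the table, and the first 75 bases of the members' annotated transcripts shared runs of at most 13 bases, well short of a 75 nt read.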

How the data were processed

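CAGE libraries of 8 samples were sequenced by the submitters as single-end 75 nt reads. The aligner BWA 0.5.9 and build mm9 are named per the submitters' processing notes; the assignment of tags to genes, by strand or not, is not given in the sources used here. As deposited by the authors, 1 table holds CPM values for 17644 genes and 8 libraries. Values up to 200 reads were whole multiples of the value of 1 read within 0.1 read for 100% of entries, so reads were recovered from them. A column name gives the group but not which sample.

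Groups were compared on log2(CPM + 1) by limma-trend (limma 3.58.1 in R 4.3.3), over 14718 genes with at least 1 CPM in at least 4 libraries, 2-sided, with Benjamini-Hochberg adjustment over all of them and calls at an adjusted p under 0.05. The other 2926 genes were not tested. Fold changes are 1 week over no delay on that scale, and means and SDs are of CPM. The code was tested on simulated data. Ratios and percentages used exact 2-sided permutation tests (scipy 1.17.1); ratios with Syk were not computed. Alternatives were pseudocounts of 0.25 and 4, no filter, a filter on the mean, TMM, median-of-ratios and quantile scaling, edgeR 4.0.16 and DESeq2 1.42.0 on the recovered reads, leaving out each library, and the 6-base tag as a block (added after seeing the data), 18 in all. Named genes are every member and, for each pathway list, up to 4 called genes with the largest change and up to 3 called lower; those named outside this rule are said to be. Some genes of the pathway and marker lists enter the counts and sums but are not reported here by name. The members, lists and tests were chosen with earlier results of these data known. RefSeq promoter windows (GRCm38.p6) were matched by symbol, and transcripts of GENCODE M21 by gene name.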

Additional observations from a re-analysis of the deposited data

Results flagged for a closer look

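Of 98 groups of 4 libraries examined, 7 had a library far from the other 3; chance flags about 1 group in 20, or about 4.9 here. Those of members all had 1-week library B highest. Plcg2 was at 27.6 CPM there and at 19.9 to 20.7 CPM in the other 1-week libraries. Trem2 was 6.00% of the microglial marker sum there and 4.53 to 4.73% in the others. Inpp5d was 3.33% there and 2.84 to 2.91% in the others. Lgals3 was also highest in 1-week B, at 26.5 CPM beside 10.4 to 12.7 CPM. Among no-delay libraries, Apoe was at 2157 CPM in C beside 1543 to 1642 CPM. Clec7a had 1 read in D (0.1 CPM) and Cd22 1 read in B (0.09 CPM), with none in the other no-delay libraries.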

How the results depend on the processing

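All 9 members were called higher in each of the 18 alternatives. The number of all genes called lower was 1971 and rose to 3211 with quantile normalization. On the recovered reads edgeR called 2923 genes higher and 2567 lower, and DESeq2 2799 and 2762, where limma called 3439 and 1971. The list of scaffolds and effectors had 0 genes called lower by limma on all libraries and 1 (Grb2) with TMM scaling, median-of-ratios scaling, edgeR, DESeq2 and without 1-week D; it ranged from 0 to 1 when each library was left out. The log2 difference of Fcgr3 over Fcer1g (0.03) changed sign without no-delay A (-0.029) and without 1-week C (-0.036), within a range of -0.036 to 0.12. That of Inpp5d relative to the microglial markers (-0.03) changed sign without no-delay A (0.032) and without no-delay C (0.035), within a range of -0.11 to 0.035. The cause was not tested. The smallest exact permutation p that 4 against 4 libraries allow is 0.0286, and the 4 no-delay reads of Fcgr4 limit its ratio. The columns carry no replicate number; with the 6-base tag as a replicate block, chosen after seeing the data, limma called 3484 genes higher and 1986 lower, all 9 members stayed higher, and no gene named from the pathway lists changed its call.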
